A study of Mus musculus with 10 samples.

Results

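Igf1 encodes insulin-like growth factor I and Igfbp4 encodes insulin-like growth factor binding protein 4. Both were followed here in mouse tumour-associated macrophages (TAM) and peritoneal exudate cells (PEC), with and without lipopolysaccharide (LPS). The members were the features, that is the spotted cDNAs, whose single gene symbol in the platform table was Igf1 or Igfbp4. They were 4 of the 9596 features and stood for 2 of 6795 named genes. Igf1 (Entrez 16000) was represented by the features 643105_1 and 648239_1, and Igfbp4 (Entrez 16010) by 643627_1 and 650817_1. The genes were picked with earlier results of these arrays in view, among them the higher ratio of Igfbp4 in untreated TAM. Their own ratios are therefore given as a description, without a test, and tests are reported for other genes of the IGF axis.

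The IGF axis joins secreted ligands, cell surface receptors and binding proteins in the fluid between them. IGF-I acts through the receptor tyrosine kinase encoded by Igf1r, which signals to PI3-kinase and AKT and to MAP kinases, and macrophages are one of the local sources of IGF-I in tissues. The protein made from Igfbp4 binds IGF-I and IGF-II and mostly keeps them from the receptor until a protease, pappalysin, cleaves it.

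The study measured total RNA on 10 cDNA arrays of the 2-colour kind, each with the RNA of 1 condition in either channel. Per the labels, the mice were 8 weeks old and of a strain written as C57/6N black, and all cells were adherent cells kept in culture. PEC, labelled as peritoneal macrophages, and TAM were either untreated or given 100 ng/mL LPS for 4 hours. The TAM were harvested 3 weeks after a tumour had been implanted, and the labels name neither the tumour nor any selection of the TAM other than adherence. For the 6 arrays that held both cell types, the wording of the labels does not settle whether the PEC came from mice with a tumour. Untreated TAM were set against untreated PEC on 4 arrays (TAM-8, TAM-3, TAM-2R, TAM-b). TAM with LPS were set against PEC with LPS on TAM1 and TAM7. PEC with LPS were set against untreated PEC on PEC1 and PEC2, and TAM with LPS against untreated TAM on TAM-trial and TAM-16. The labels do not say that the arrays of a comparison came from separate animals or cultures, so SDs and p-values reflect variation among hybridisations that could be purely technical.

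Each value is a log2 ratio as the authors gave it, so that 1 unit is a doubling, and it holds no expression level. Channel 2 was read over channel 1. The dyes are not stated, so the directions below are likely rather than certain. They rest on an LPS response list, of which 17 and 19 of the 19 measured genes lay above 0 on PEC1 and PEC2, with a median log2 ratio of 2.78. TAM-2R and TAM1 were labelled with exchanged channels and were turned to match the others. Across all features, the turned TAM-2R correlated with the other arrays of its comparison at r between 0.036 and 0.101, and the turned TAM1 with TAM7 at r = 0.293. Array medians lay between -0.199 and 0.067.

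To place the members on the genome, the first bases of both genes are shown as RefSeq gives them on GRCm38.p6, from 250 bases before to 50 bases after the annotated start. The capitals mark matches to the motifs searched on both strands.
Igf1: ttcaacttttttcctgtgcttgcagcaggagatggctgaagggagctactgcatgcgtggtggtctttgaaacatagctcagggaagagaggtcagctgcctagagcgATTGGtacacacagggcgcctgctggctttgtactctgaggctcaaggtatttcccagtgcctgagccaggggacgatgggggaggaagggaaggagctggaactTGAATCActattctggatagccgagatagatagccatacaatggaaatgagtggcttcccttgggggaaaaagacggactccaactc
Igfbp4: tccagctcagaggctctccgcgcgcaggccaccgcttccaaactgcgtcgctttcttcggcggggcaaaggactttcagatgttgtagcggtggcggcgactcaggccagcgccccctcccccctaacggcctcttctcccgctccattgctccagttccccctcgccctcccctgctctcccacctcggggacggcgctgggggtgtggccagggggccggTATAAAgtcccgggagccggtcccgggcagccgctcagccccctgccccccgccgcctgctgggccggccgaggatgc
The Igf1 stretch lies at chr10:87860861-87861160 and the Igfbp4 stretch at chr11:99040994-99041293, both on the plus strand. They differed in base composition. The Igf1 stretch had a GC content of 52.3% and 6 CpG sites, close to the median of 32851 promoters of this length (52.7% and 7), whereas that of Igfbp4 had 71.3% and 27, and 92.2% of promoters had a lower GC content. The Igfbp4 stretch held the TATA box letters TATAAA at position -28 from the start, as 13.6% of all promoters did somewhere in the window. That of Igf1 held TGAATCA at position -37. These letters matched the loose pattern TGANTCA, searched for AP-1 with any base at N (7.8% of promoters), and are not called an AP-1 site here. The Igf1 stretch also held CCAAT, on the minus strand, at position -142 (37.4%). Neither window held ACGTG, the core of the hypoxia response element (19.6%), GGGCGG, the GC box (35.7%), or the core of the interferon-stimulated element (3.4%). These matches describe letters and show no binding, and the arrays measured none.

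Igf1 lay lower in untreated TAM than in untreated PEC on every array, and both of its features did so singly. The feature 643105_1 had log2 ratios of -2.47 on TAM-b, -0.86 on TAM-2R, -4.46 on TAM-3 and -3.68 on TAM-8. The feature 648239_1 had ratios of -1.51, -0.76, -2.87 and -1.74 on the same arrays. Both features were lowest on TAM-3 and nearest to 0 on TAM-2R. The mean of the features was -1.99 on TAM-b, -0.81 on TAM-2R, -3.66 on TAM-3 and -2.71 on TAM-8. Over the 4 arrays Igf1 averaged -2.29 ± 1.2 (SD, n = 4; SE 0.45), which corresponds to 4.9-fold lower in TAM. By its mean it was the 40th lowest of 8905 genes and unnamed features. Singly, 643105_1 averaged -2.87 ± 1.57 (7.29-fold lower, 17th lowest of 9596 features) and 648239_1 averaged -1.72 ± 0.87 (3.29-fold lower, 154th lowest).

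Igfbp4 went the other way and lay higher in untreated TAM on every array. The feature 643627_1 had log2 ratios of 1.25 on TAM-b, 2.50 on TAM-2R, 2.40 on TAM-3 and 2.58 on TAM-8. The feature 650817_1 had ratios of 0.79, 2.46, 1.98 and 3.61. TAM-b was the lowest array and TAM-8 the highest for both. The gene averaged 2.20 ± 0.87 (SD, n = 4; SE 0.37), with 1.02 on TAM-b, 2.48 on TAM-2R, 2.19 on TAM-3 and 3.10 on TAM-8, which corresponds to 4.59-fold higher in TAM and to the 60th highest mean. The means of its features were almost equal, at 2.18 ± 0.63 (4.55-fold) and 2.21 ± 1.17 (4.63-fold).

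Ratios below 0 on all 4 arrays, as for Igf1, were found for 10.8% of all genes and features, and ratios above 0 on all 4, as for Igfbp4, for 8.77%. Since the genes were chosen with this comparison known, nothing follows from these shares about the members. In RNA from a whole culture, fewer cells that make a transcript and less of it per cell cannot be told apart.

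**Figure D1:**
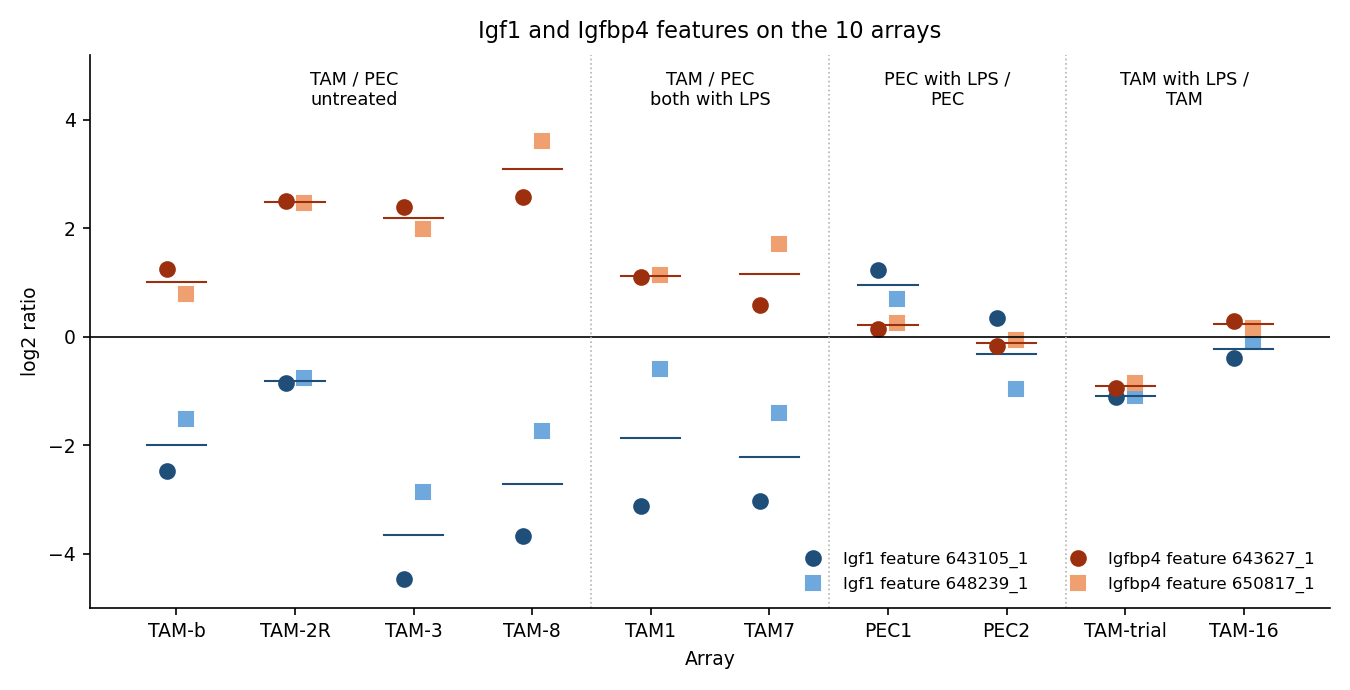
Log2 ratio (vertical axis) of each Igf1 and Igfbp4 feature on each of the 10 arrays (horizontal axis), grouped by the conditions compared, with lines at the mean of the features of a gene. On all 6 arrays of TAM against PEC the Igf1 features lie below 0 and the Igfbp4 features above it, and on the 4 arrays of LPS against untreated cells no feature goes beyond 1.23 in size.

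The difference between Igfbp4 and Igf1 within an array does not change when the same amount is subtracted from all its features. A correction that varies between spots can change it. On the arrays of untreated TAM against PEC the log2 ratio of Igfbp4 exceeded that of Igf1 by 3.01 on TAM-b, 3.29 on TAM-2R, 5.85 on TAM-3 and 5.80 on TAM-8 (mean 4.49 ± 1.55, SD, n = 4). The smaller gap on TAM-2R came with the Igf1 ratio nearest to 0 (-0.81), and that on TAM-b with the lowest Igfbp4 ratio (1.02).

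The same opposite pair of directions was present when both cell types had been given LPS. Igf1 lay lower in TAM with LPS than in PEC with LPS, at -1.87 on TAM1 and -2.21 on TAM7 (mean -2.04 ± 0.25, SD, n = 2; SE 0.64; 4.11-fold lower). Most of this came from 643105_1, with -3.13 on TAM1 and -3.02 on TAM7 (8.44-fold lower on average), while 648239_1 was at -0.60 and -1.40 (2.01-fold lower). Igfbp4 lay higher, at 1.13 on TAM1 and 1.16 on TAM7 (mean 1.14 ± 0.02, SD, n = 2; SE 0.52; 2.21-fold higher). Its features were less alike than this SD, with 643627_1 at 1.11 and 0.59 and 650817_1 at 1.14 and 1.72. The gap between the genes was 2.99 on TAM1 and 3.37 on TAM7.

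With LPS, ratios below 0 on both arrays were found for 28.2% of all genes and features and ratios above 0 on both for 32.9%. Over the 6 arrays of TAM against PEC, with and without LPS, 4.97% of genes and features were below 0 on all, as Igf1 was, and 3.19% above 0 on all, as Igfbp4 was. The TAM to PEC ratio with LPS minus that without was 0.25 (SE 0.78) for Igf1 and -1.06 (SE 0.64) for Igfbp4, both on the log2 scale. For Igfbp4, both arrays with LPS lay below 3 of the 4 untreated ones and above TAM-b, so the groups overlapped. For Igf1 the arrays with LPS lay inside the range of the untreated ones.

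The exchanged arrays bear on these values. Read the other way, TAM-2R gives a mean of -1.89 for Igf1 and 0.96 for Igfbp4 in untreated TAM. TAM1 read the other way brings both means of TAM with LPS against PEC with LPS close to 0, at -0.17 and 0.02. The array prints gave the same directions. For untreated TAM against PEC, the 3 arrays of print v3p6 averaged -2.15 for Igf1 and 1.90 for Igfbp4, and TAM-8 of print v9p2 had -2.71 and 3.10. With LPS, TAM1 was of v3p6 and TAM7 of v9p2.

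In PEC, neither gene lay on the same side of 0 on both arrays of LPS against untreated cells. Igf1 was at 0.96 on PEC1 and -0.31 on PEC2 (mean 0.32 ± 0.90, SD, n = 2; SE 0.64), and its features disagreed on PEC2, with 643105_1 at 0.34 and 648239_1 at -0.96. On PEC1 they were at 1.23 and 0.70. Here too, neither array had exchanged channels, and a dye term moved the mean of Igf1 to 0.99 in the direct fit and 0.78 in a loop fit. Igfbp4 was near 0, at 0.21 on PEC1 and -0.11 on PEC2 (mean 0.05 ± 0.23, SD, n = 2; SE 0.52), and its features were within 0.26 of 0 on both arrays. PEC1 was of print v1p1 and PEC2 of v3p6, so print and array cannot be told apart here.

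In TAM, Igf1 was lower with LPS on both arrays and Igfbp4 on 1 of them. Igf1 was at -1.10 on TAM-trial and -0.23 on TAM-16 (mean -0.67 ± 0.61, SD, n = 2; SE 0.64; 1.59-fold lower), and both features lay below 0 on both arrays, as 33.7% of genes and features did by their means. Igfbp4 was at -0.90 on TAM-trial and 0.23 on TAM-16 (mean -0.33 ± 0.80, SD, n = 2; SE 0.52), and its features followed each other closely, at -0.94 and -0.86 on TAM-trial and at 0.29 and 0.17 on TAM-16. TAM-trial, of print v9p2, was the lower array for both genes, and TAM-16 was of print v3p6. Neither array of this comparison had exchanged channels, and the mean of Igf1 depended on a dye term, with 0.30 in a loop fit and -0.01 in the direct fit. The response to LPS in TAM minus that in PEC was -0.99 (SE 0.90) for Igf1 and -0.38 (SE 0.74) for Igfbp4.

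The 4 comparisons form a loop, so that TAM with LPS against PEC with LPS can also be reached through the other 3. The path gave -3.28 for Igf1, against -2.04 measured directly (difference 1.24, SE 1.19), and 1.82 for Igfbp4, against 1.14 (difference -0.68, SE 0.98). Both routes had the same sign for each gene. The SE was close to the difference for Igf1 and above it for Igfbp4.

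Ordered by mean, Igfbp4 ran from 2.20 (untreated TAM against PEC) through 1.14 (with LPS) and 0.05 (LPS in PEC) to -0.33 (LPS in TAM). The first and the second overlapped, as did the third and the fourth, and no array of the first pair overlapped the second pair. Igf1 ran from -2.29 and -2.04 through -0.67 to 0.32. Here every step overlapped except that from -2.04 to -0.67, where the arrays ranged from -2.21 to -1.87 and from -1.10 to -0.23. TAM-2R, at -0.81, also lay within the range of LPS in TAM.

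How far a gene's spots measured the same thing could be read from its features, which are separate spots. Over the 10 arrays, the features of Igfbp4 correlated at r = 0.917 and those of Igf1 at r = 0.822. Of 576 genes with 2 features, the median was 0.081 (quartiles -0.182 and 0.373), and Igfbp4 had the 8th and Igf1 the 17th highest value. The points of such a correlation share their arrays and hybridisations, and the large differences between TAM and PEC enter it. Since the genes were picked with results of these arrays in view, nothing follows from these ranks about the members. The features of Igfbp4 had the same sign on 10 of 10 arrays, with a median absolute difference of 0.12. Those of Igf1 had it on 9 of 10, with a median absolute difference of 1.13, and 643105_1 was the lower on 8 of 10. For Igf1, therefore, the size of the difference depended on the feature, from 3.29-fold to 7.29-fold in untreated TAM, and its direction did not.

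**Figure D2:**
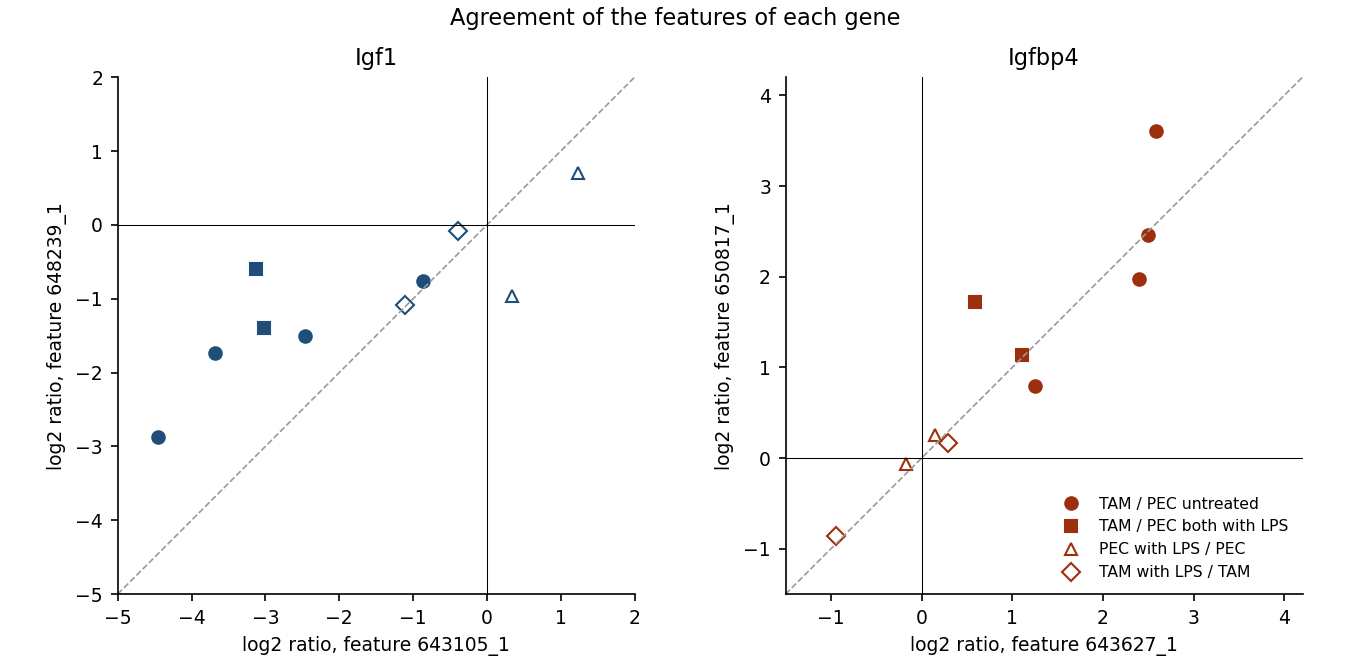
Log2 ratio of one feature of a gene (vertical axis) against the other (horizontal axis), with a point for each of the 10 arrays, symbols for the conditions compared and a dashed line of equality. The Igfbp4 features lie near the line (r = 0.917), and the Igf1 features lie above it on the arrays with the lowest ratios (r = 0.822).

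Other genes of the axis were taken from a list of 81 in 8 roles, of which 40 were named on the array. Ins1, Ins2, Insr and Igfbp7 were among those not named. Each ligand, receptor and binding protein named on the array, other than the members, had 1 feature. Of the other genes of the list and the markers named below, Stc2 and Col5a2 had 2 features and the rest 1. Where a gene had 1 feature, agreement between spots could not be checked. None of the 38 without Igf1 and Igfbp4 passed the limma test in any of the 4 comparisons (threshold 0.05 after Benjamini-Hochberg adjustment). The share of all genes and features that passed was 0.460% in untreated TAM against PEC and 0.0674% in TAM with LPS against PEC with LPS. It was 0.0112% for LPS in PEC and 0.00% for LPS in TAM. For LPS in TAM, 497 had an unadjusted p under 0.05, and chance alone would give a share of about 0.05 of all tests. In untreated TAM against PEC, the median log2 ratio of the 38 was -0.03 (18 of 38 above 0), and that of all genes and features was -0.02 (48.7% above 0). The medians were 0.26 for LPS in PEC (all, -0.04), -0.08 for LPS in TAM (all, -0.13) and -0.18 for TAM with LPS against PEC with LPS (all, 0.08).

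Among ligands, Igf2, which encodes IGF-II, did not follow Igf1. Its log2 ratios in untreated TAM against PEC were 1.48 on TAM-b, -0.23 on TAM-2R, 1.53 on TAM-3 and 3.12 on TAM-8 (mean 1.47 ± 1.37, SD, n = 4; limma adjusted p = 0.356). With LPS, it was at -0.73 on TAM1 and 2.59 on TAM7 (adjusted p = 0.960). The arrays of print v9p2, TAM-8, TAM7 and TAM-trial (2.70), had the 3 highest values of this gene, and the part of the print in them was not tested.

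Among receptors, Igf2r, with 1 feature, came closest to the threshold. It encodes the cation-independent mannose 6-phosphate receptor, which clears IGF-II and carries enzymes to lysosomes. Its log2 ratios were -2.15 on TAM-b, -2.47 on TAM-2R, -3.23 on TAM-3 and -1.52 on TAM-8 (mean -2.34 ± 0.71, SD, n = 4; 5.07-fold lower; limma adjusted p = 0.0595). All 4 arrays lay below 0. It was past the threshold in 2 of 22 other settings of the fit, a fit of the whole loop (adjusted p = 0.0421) and one with the array print as a block (0.0473), and its adjusted p ranged from 0.0421 to 0.708 over them. With LPS it was at -2.38 on TAM1 and -0.46 on TAM7 (mean -1.42 ± 1.36, SD, n = 2; adjusted p = 0.528). Igf1r, the receptor through which IGF-I signals, was also below 0 on 4 of 4 untreated arrays (mean -0.77 ± 0.83, SD, n = 4; adjusted p = 0.369), and at 0.45 and -0.18 with LPS. Insrr, the insulin receptor-related receptor, had 1 array far from the others, with 4.25 on TAM-3 and -1.0 to -0.39 on the rest (adjusted p = 0.734).

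Since Igfbp4 was picked with its ratio in untreated TAM in view, nothing follows from its place among the binding proteins. None of the other binding proteins named on the array had a mean as far from 0 as Igfbp4 in untreated TAM against PEC. The nearest was Igfbp6, which prefers IGF-II, with 0.84 ± 0.58 and 4 of 4 arrays above 0 (SD, n = 4; limma adjusted p = 0.289). Igfbp5 averaged 0.37 ± 0.70, Igfbp3, the main carrier of IGFs in serum, 0.03 ± 0.85, and Igfals, its partner in the serum complex, -0.21 ± 0.75 (adjusted p from 0.654 to 0.979). The means of Igfbp1 (-0.30 ± 1.70) and Igfbp2 (-0.58 ± 1.76) each include 1 low array, TAM-3 at -2.74 and TAM-2R at -3.13. With LPS in both cell types, Igfbp2 had a mean of 1.35 ± 0.53, above the 1.14 of Igfbp4, with 0.98 on TAM1 and 1.73 on TAM7 (SD, n = 2; adjusted p = 0.758).

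**Figure D3:**
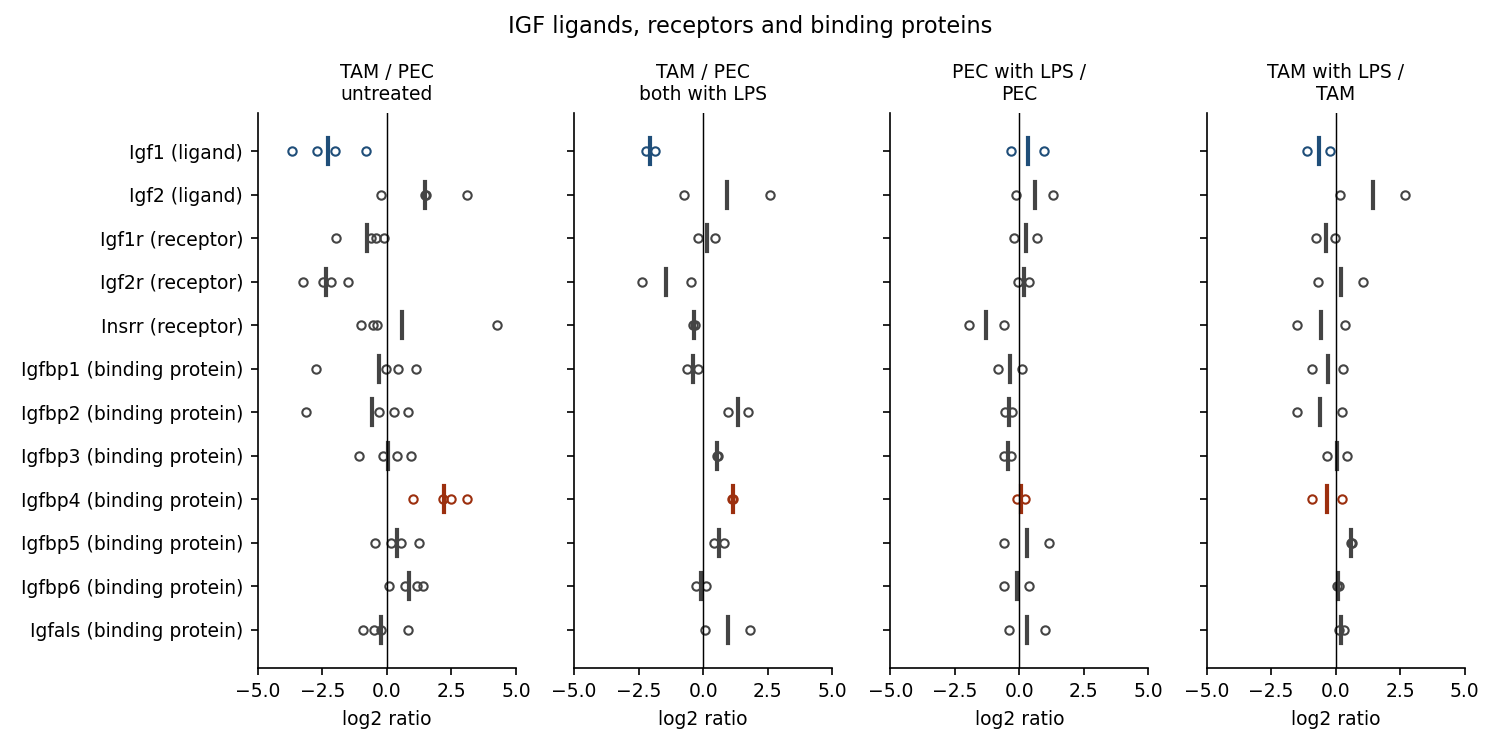
Log2 ratios (horizontal axis) of the IGF ligands, receptors and binding proteins named on the array, 1 panel for each comparison, with a circle for each array and a bar at the mean. In untreated TAM against PEC, Igf1 and Igf2r lie below 0 and Igfbp4 above 0 on all 4 arrays, and Insrr has a single array at 4.25.

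In the remaining roles, the gene with the largest mean in untreated TAM against PEC was Bad, a pro-apoptotic target of AKT, with 1.13 ± 0.38 and 4 of 4 arrays above 0 (SD, n = 4; limma adjusted p = 0.221). It stands for the PI3-kinase, AKT and mTOR group, in which 0 of 14 measured genes passed and 8 lay above 0. Ptpn11, which encodes the phosphatase SHP-2, led the adaptors (0.90 ± 0.45, adjusted p = 0.280) and the kinase gene Jak2 the growth hormone axis (0.81 ± 0.96, adjusted p = 0.365). Stc2, whose product stanniocalcin-2 inhibits pappalysin, was at -0.39 ± 0.37 (adjusted p = 0.688). Elk1, a transcription factor at the end of the MAP kinase path, was at -0.62 ± 1.57 (adjusted p = 0.590), with -2.95 on TAM-2R and a highest value of 0.52. These genes were above or below 0 by amounts that did not pass the test. Some genes of these roles had larger means with LPS, and none passed. For LPS in PEC, Akt2 averaged 4.21, Stat5a 3.89 and Socs3, also of the LPS response list, 3.71 (n = 2, limma adjusted p from 0.302 to 0.427). Of the 38, 22 lay above 0 there and 16 below. In TAM with LPS against PEC with LPS, Socs3 averaged -2.54 (adjusted p = 0.477), with 15 of the 38 above 0 and 23 below.

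Over the 10 arrays, Igf1 and Igfbp4 correlated at Pearson r = -0.608 and Spearman rho = -0.636, given as a description of arrays that differ in the conditions they compare. Without turning TAM-2R and TAM1, Pearson r was -0.805, and the ranking that follows rests on the turned values. The named genes most like Igf1 by Pearson r over the same 10 arrays, out of 6794 compared, were Tmem165 (0.944), Tra2b (0.923), Tbxas1 (0.918), Gspt1 (0.916) and Bst1 (0.904). Bst1, an ectoenzyme of the cell surface, came nearest to Igf1 in size, with means of -1.94 in untreated TAM and -1.87 with LPS. Tbxas1, the thromboxane synthase, was at -1.19 and -1.21, and the other 3 lay between -1.06 and -0.56. Most like Igfbp4 were Gtpbp1 (0.944), Cdr2l (0.941), Ccnd1 (0.927), Mtap (0.915) and Cx3cr1 (0.912). Ccnd1, the cell cycle gene of cyclin D1, averaged 2.10 in untreated TAM and 0.58 with LPS. Cx3cr1, the fractalkine receptor of monocytes and macrophages, was at 1.70 and 0.35. Gtpbp1, Cdr2l and Mtap were lower, between 0.55 and 0.76 in untreated TAM and between 0.08 and 0.18 with LPS. The highest of 6794 correlations over 10 arrays can be high by chance, so the ranking is a description.

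Markers of the cells that an adherent harvest could hold were set beside the members. Ratios give no level, so the presence of a marker in either cell type could not be checked, and 0 genes of the 6 marker lists passed the limma test in any comparison, against 0.460% of all genes and features in untreated TAM against PEC. Of the 14 macrophage markers 10 were measured, and their median in untreated TAM against PEC was -0.53 (3 of 10 above 0), from -1.29 on TAM-8 to 0.20 on TAM-2R. They did not move together. Cd68, a lysosomal protein of macrophages, was at -1.74 ± 1.41 and Lyz2, lysozyme, at -1.55 ± 0.71 (adjusted p = 0.241 and 0.232), while Aif1, a calcium-binding protein of macrophages, was above 0 on 4 of 4 arrays with a mean of 2.75 ± 1.3 (limma adjusted p = 0.0686; SD, n = 4). With LPS in both cell types the macrophage median was -1.72 on TAM1 and -1.66 on TAM7, beside -1.87 and -2.21 for Igf1. The same markers had a median of 1.17 for LPS in PEC (9 of 10 above 0). For LPS in TAM it was -0.91 (1 of 10 above 0), with -1.95 on TAM-trial and 0.17 on TAM-16. The medians on TAM1 and TAM7 therefore give no reading of macrophage content, and the part of LPS in them was not tested.

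Of the 21 fibroblast and stroma markers 14 were measured, and their median in untreated TAM against PEC was 0.98 (12 of 14 above 0), against -0.02 for all genes and features. By array it was 1.22 on TAM-b, 1.0 on TAM-2R, -0.12 on TAM-3 and 1.80 on TAM-8. Igfbp4 was at 1.02, 2.48, 2.19 and 3.10 on the same arrays. Both were highest on TAM-8, the median was lowest on TAM-3 and Igfbp4 was lowest on TAM-b. The highest means of the list were those of Sparc, a matrix glycoprotein, and Loxl1, which cross-links elastin. Sparc was at 4.23 ± 3.46 with 9.0 on TAM-3, and Loxl1 at 2.68 ± 1.61 (SD, n = 4, limma adjusted p = 0.123 for both). Some markers did not share this, with Pdgfrb at -0.16, and Col5a2 (0.06), Acta2 (0.15) and Dcn (0.19) near 0. Thy1 averaged -0.43, with -3.49 on the turned array TAM-2R and 3 of 4 arrays above 0. The means of the remaining stroma markers ranged from 0.46 (Col1a1) to 1.68 (Col1a2). With LPS the median was 0.43 on TAM1 and 0.57 on TAM7, where Igfbp4 was at 1.13 and 1.16. The medians of the other lists in untreated TAM were 0.98 for neutrophils, 0.19 for endothelial cells, 0.18 for T, NK and B cells and 0.15 for epithelial and mesothelial cells. By array, the neutrophil median was 1.17 on TAM-b, 0.31 on TAM-2R, 2.15 on TAM-3 and 0.80 on TAM-8. The part of other cells in the ratios of Igf1 and Igfbp4 was not tested.

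**Figure D4:**
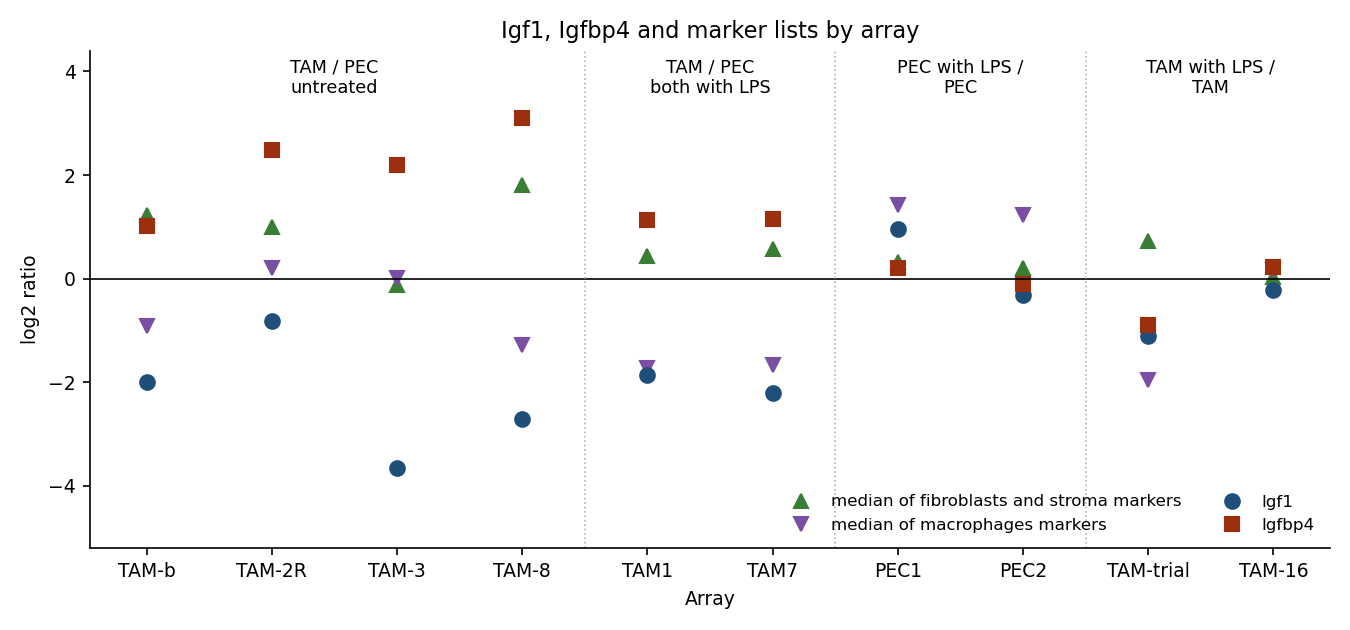
Log2 ratios (vertical axis) of Igf1 and Igfbp4, each the mean of its features, and the medians of the macrophage and the fibroblast and stroma markers on each of the 10 arrays (horizontal axis). On the arrays of untreated TAM against PEC, the fibroblast and stroma median and Igfbp4 are both highest on TAM-8 (1.80 and 3.10), the median is lowest on TAM-3 (-0.12) and Igfbp4 is lowest on TAM-b (1.02).

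Under 22 other ways of processing or fitting the arrays, the means of Igf1 and Igfbp4 in TAM against PEC, untreated and with LPS, kept their sign. For the 10 that left out 1 array, and for fits to fewer arrays, this was fixed in advance. Each array of these comparisons already lay on the same side of 0. The means came nearest to 0 with LPS when TAM1 was read the other way (-0.17 and 0.02). Singly, the Igf1 feature 643105_1 then turned to 0.05 and the Igfbp4 feature 643627_1 to -0.26. Leaving out 1 array at a time gave means between -2.79 and -1.84 for Igf1 and between 1.90 and 2.59 for Igfbp4 in untreated TAM against PEC.

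**Figure D5:**
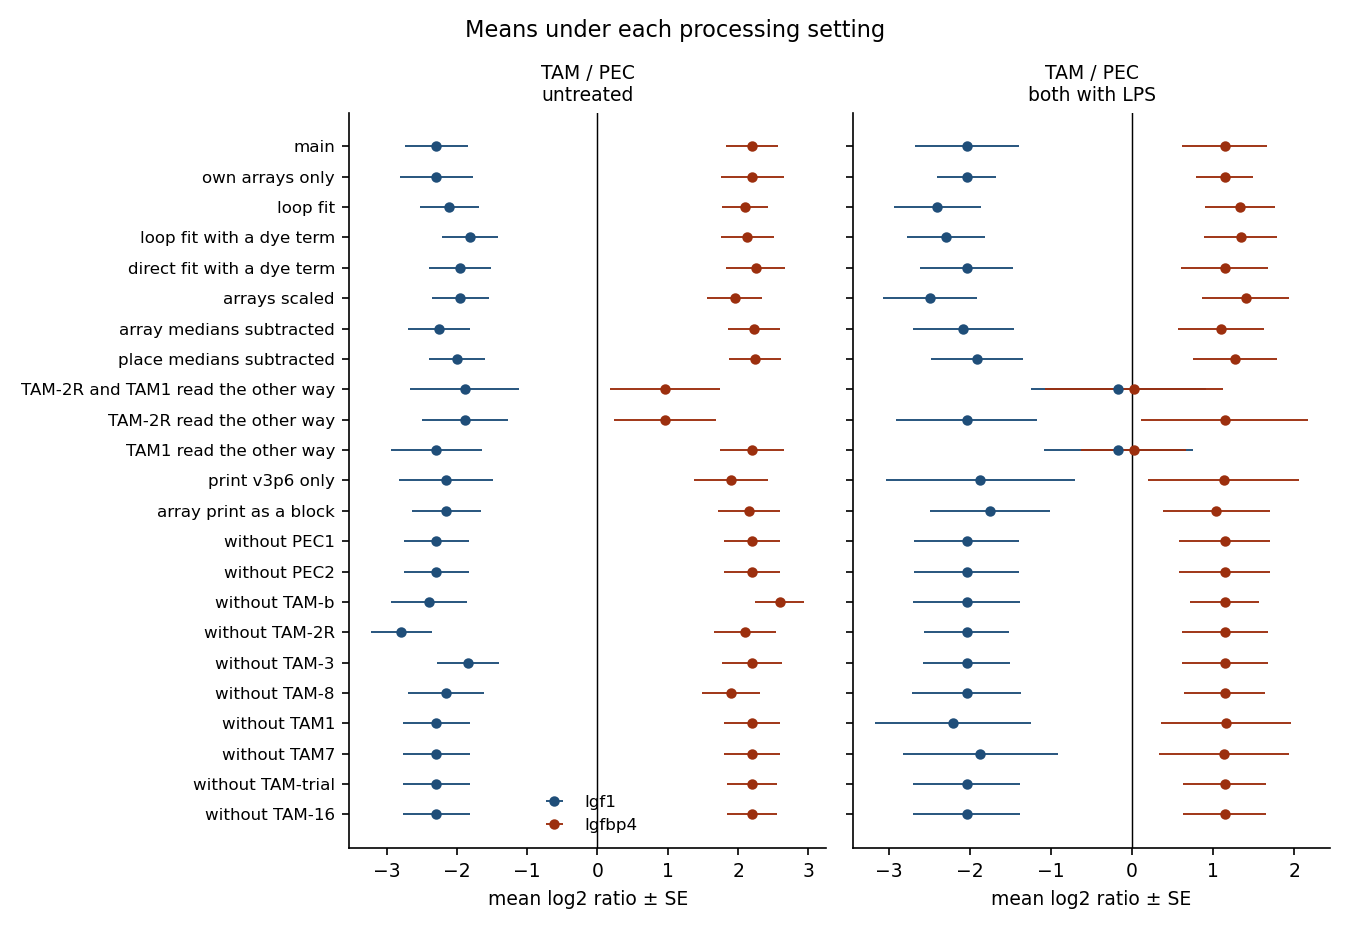
Mean log2 ratio and its SE (horizontal axis) of Igf1 and Igfbp4 in TAM against PEC, untreated and with LPS, under each way of processing the arrays (vertical axis). In untreated TAM every mean of Igf1 is at -1.81 or below and every mean of Igfbp4 is at 0.96 or above, and with LPS both are close to 0 when TAM1 is read the other way.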

How the data were processed

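The deposited values are log ratios of the channels, read as log2. How spots were quantified, corrected and normalized, the base of the logarithm and the dyes are items not given in the sources that were used. Base 2 was preferred since the largest value, 11.687, would be a ratio of 119014 in base e, above the 65535 of a 16-bit scanner. All 9596 features had values on all arrays, with no intensities to filter on. By the platform annotation, 7486 features had 1 symbol, 483 several and 1627 none; the Entrez identifiers of 7395 matched the reference table. Features of a gene were averaged, which left 8905 genes and unnamed features, and were also fitted singly.

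A mean for each direct comparison was fitted to all 10 arrays with limma 3.58.1 in R 4.3.3 (6 residual and 3.841 prior degrees of freedom, two-sided p, Benjamini-Hochberg adjustment over 8905, threshold 0.05); tables and figures were made in Python 3.11.15. TAM-2R and TAM1 were turned, so a dye effect of a gene cancels in the mean of TAM1 and TAM7, only in part in untreated TAM against PEC, and not in the comparisons of LPS with untreated cells. SDs are over arrays and SEs come from the fit. The number of arrays limits the precision.

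Igf1, Igfbp4 and the gene lists were chosen with earlier results of these data known. The text names all ligands, receptors and binding proteins of the IGF list. In other roles it names the genes past the threshold or else the one with the largest mean in untreated TAM. It also names the 5 genes most correlated with each member. Genes of marker lists, and Akt2, Stat5a and Socs3, were named after their values were seen. Promoters come from RefSeq (GRCm38.p6), where both genes matched by symbol. Alternatives were other models, scalings, codings and prints, and leaving out each array.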

Additional observations from a re-analysis of the deposited data

Results flagged for a closer look

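In untreated TAM against PEC, 21 items (the members, their features and the named genes of the IGF list) were examined for 1 array far from the other 3 by Dixon's test. Chance alone flags about 1 in 20 groups, and 3 items were past the critical value. The Igfbp4 feature 643627_1 had a log2 ratio of 1.25 on TAM-b, against 2.40 to 2.58 on the others, and the second Igfbp4 feature was also lowest on TAM-b. Insrr had 4.25 on TAM-3 and between -1.0 and -0.39 elsewhere. Elk1 was at -2.95 on TAM-2R, against a highest value of 0.52. The cause was not tested for any of them.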

How the results depend on the processing

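Each log2 ratio already sets the conditions of an array against each other within that array. No further pairing across the comparisons was possible because they share fewer than 2 replicate numbers. Of 88 other values each, 80 for Igf1 and 77 for Igfbp4 moved by less than the SD between arrays. For many of them this was fixed in advance, so these counts do not measure stability. Leaving out 1 array (10 values for each comparison) cannot move a mean by that SD, and a fit to a comparison's own arrays leaves its mean unchanged. The cause of the following moves was not tested. For TAM with LPS against PEC with LPS (-2.04 and 1.14), the loop fit gave -2.40 and 1.33, the loop fit with a dye term -2.29 and 1.34, arrays scaled -2.49 and 1.40, the print as a block -1.75 and 1.04, and TAM1 read the other way, alone or with TAM-2R, -0.17 and 0.02. Igfbp4 there was also 1.10 with array medians subtracted and 1.27 with place medians subtracted (medians over places within 96 consecutive features). TAM1 read the other way turned feature 643105_1 to 0.05 and 643627_1 to -0.26. Igfbp4 in untreated TAM was 0.96 with TAM-2R read the other way, alone or with TAM1. For LPS in TAM, Igf1 turned to 0.30 with the loop fit and a dye term (features 0.34 and 0.25) and was -0.01 with a dye term in the direct fit (643105_1 at 0.04). For LPS in PEC, Igfbp4 was 0.32 with the loop fit and a dye term. Feature 643105_1 there was 1.56 with a dye term in the direct fit. Without 1 array, Igf1 ranged from -2.79 to -1.84 (untreated TAM), -2.21 to -1.87 (TAM with LPS against PEC with LPS), -1.10 to -0.23 (LPS in TAM) and -0.31 to 0.96 (LPS in PEC), and Igfbp4 from 1.90 to 2.59, 1.13 to 1.16, -0.90 to 0.23 and -0.11 to 0.21. Of the IGF list, 1 gene, Igf2r, passed in untreated TAM with the loop fit and with the print as a block. For LPS in PEC, between 0 and 1 passed without 1 array, namely Stc2 without PEC1 (-3.31, adjusted p = 0.0496) and Stat5a without PEC2 (6.12, adjusted p = 0.0214), each resting on 1 array whose spread was taken from the other groups.

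Counts of genes and features past the threshold by limma moved more. Some unadjusted counts stand beside them, and chance alone would put a share of about 0.05 of all tests under 0.05. In untreated TAM, 41 became 26 (loop fit with dye term), 17 (direct fit with dye term), 12 with arrays scaled, 11 with the print as a block, 2 on its own arrays, and 0 on print v3p6 alone (513 at an unadjusted p under 0.05), with TAM-2R (873), TAM1 (1057) or both (744) read the other way; without 1 array it was 6 (without TAM-8) to 24. For LPS in PEC, 1 became 28 (loop fit), 3 (scaled), 5 (place medians), 84 (print block), 2 (TAM-2R or both read the other way) and 0 (own arrays, loop fit with a dye term, print v3p6; 1120, 588 and 299 unadjusted), and 1 to 85 (without PEC1) without 1 array. For TAM with LPS against PEC with LPS, 6 became 137 (loop fit), 131 (with a dye term), 97 (scaled), 16 (place medians) and 0 (own arrays, either or both exchanged arrays read the other way, print v3p6, print block; 140 to 1087 unadjusted), and 3 to 11 without 1 array. For LPS in TAM, 0 (497 unadjusted) became 1 (scaled) and 0 to 3 without 1 array. For the difference of the LPS responses, 0 (612 unadjusted) became 42 (print block) and 0 to 47 (without PEC1) without 1 array. A dim spot cannot be told from a bright one in these ratios.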
